A study of Mus musculus with 79 samples.

Results

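The 38 genes described here mark T cells and natural killer (NK) cells. They were taken from the deposited tables by gene symbol from a list drawn up with earlier results of these data known, and all 38 were found once each among 39063 genes with counts. All 38 also passed the filter of a mean of at least 0.4 TPM (transcript abundance scaled for gene length and library), which 14873 genes passed in all. RNA came from 79 samples of 51 mice aged 4 to 5 months. Caudal vertebrae (CV), which are filled with constitutive bone marrow fat, were sampled in 18 females and 33 males, and 18 of the females also gave lumbar vertebrae (LV), a marrow with little fat. Subcutaneous inguinal white adipose tissue (iWAT) came from 10 of these females.

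Mice were BMAd-Pnpla2+/+ (WT) or BMAd-Pnpla2-/- (cKO), in which the lipase ATGL is deleted in bone marrow adipocytes. All mice received an intracerebroventricular (ICV) infusion for 9 days, of PBS or of leptin at 100 ng per hour. Female WT mice numbered 5 with PBS and 5 with leptin, and each of these 10 mice gave CV, LV and iWAT. Female cKO mice numbered 4 with PBS and 4 with leptin and gave CV and LV. Male CV came from 5 WT mice with PBS, 8 WT mice with leptin, 5 cKO mice with PBS and 4 cKO mice with leptin. A further 5 male WT mice with PBS and 6 with leptin also received subcutaneous insulin for the same days. WT mice were littermates of the cKO mice on a mixed strain background. The iWAT groups are WT only, so the iWAT effect has no knockout group beside it.

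T cells recognise antigen through a receptor that signals through the CD3 chains and the kinases Lck and Zap70, while CD4 and CD8 act as co-receptors that divide helper from cytotoxic cells. NK cells kill without such a receptor, with perforin and granzymes, and share much of this machinery with cytotoxic T cells. The inguinal fat pad of the mouse holds a lymph node, a structure packed with T and B cells, fed by high endothelial venules and kept in order by stromal chemokines, so RNA of whole inguinal fat can hold node RNA in any amount that the dissection leaves. In bulk RNA, fewer cells of a type and less RNA per cell cannot be told apart.

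RefSeq promoter windows on GRCm38.p6 were matched for 27 of the 38 genes. Shown here are the 250 bases before the transcript start listed for Cd3d and Cd3e, which encode signalling chains of the T cell receptor. The same is shown for Il2ra and Cxcr3, which are among the genes that passed the test in iWAT. Capitals mark matches on either strand to the letters TGTGGT (RUNX core), GGAAGT (ETS core), CAGCTG (E-box) or TTTGAA (TCF core), none of which overlap here.
Cd3d: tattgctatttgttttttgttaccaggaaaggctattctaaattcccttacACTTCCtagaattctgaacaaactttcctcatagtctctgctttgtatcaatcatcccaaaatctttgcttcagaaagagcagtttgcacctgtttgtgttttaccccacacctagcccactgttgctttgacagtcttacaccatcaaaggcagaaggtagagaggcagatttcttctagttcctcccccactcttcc
Cd3e: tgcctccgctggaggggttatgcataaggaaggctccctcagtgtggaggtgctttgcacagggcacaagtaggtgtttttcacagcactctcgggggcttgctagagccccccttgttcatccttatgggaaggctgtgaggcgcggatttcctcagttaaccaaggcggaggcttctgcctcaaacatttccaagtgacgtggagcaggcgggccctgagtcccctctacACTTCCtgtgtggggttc
Il2ra: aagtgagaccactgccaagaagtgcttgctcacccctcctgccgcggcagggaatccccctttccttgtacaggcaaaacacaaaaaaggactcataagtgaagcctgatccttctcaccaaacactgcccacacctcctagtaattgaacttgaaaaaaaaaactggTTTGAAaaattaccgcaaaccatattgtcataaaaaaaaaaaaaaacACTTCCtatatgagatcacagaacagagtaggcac
Cxcr3: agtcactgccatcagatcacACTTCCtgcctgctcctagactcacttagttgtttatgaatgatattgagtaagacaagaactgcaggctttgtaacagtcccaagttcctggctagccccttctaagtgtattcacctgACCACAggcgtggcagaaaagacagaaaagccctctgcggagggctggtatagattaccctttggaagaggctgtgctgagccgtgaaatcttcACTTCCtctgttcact
These windows lie at chr9:44981536-44981785 on the plus strand for Cd3d, chr9:45009612-45009861 on the minus strand for Cd3e, chr2:11642542-11642791 on the plus strand for Il2ra and chrX:101734148-101734397 on the minus strand for Cxcr3. The RefSeq gene spans of Cd3d, from 44981769, and of Cd3e, from 45009663, reach into their windows. ETS letters began 199 bases before the start of Cd3d, 18 before that of Cd3e and 35 before that of Il2ra. In Cxcr3 they began 230 and 16 bases before the start. The ETS letters were in 13 of the 34 windows of the 27 matched genes, which is 38.2%, and in 19.7% of the 32851 windows of this length in the table. The RUNX letters were in 10 of 34, or 29.4%, against 14% of all windows, the TCF letters in 8 of 34, or 23.5%, against 16%, and the E-box letters in 3 of 34, or 8.82%, against 13%. These are matches of letters only, and binding was not measured.

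A gene is said to have passed, or to have risen or fallen, where its adjusted p was below 0.05 and its log2 fold change at least 0.5 in size. Interactions needed the adjusted p only. Total counts per library were 17638318 to 19100698 in iWAT, 16100377 to 19364106 in CV and 28717516 to 29757254 in LV. Gzmk was the thinnest of the 38 genes, with 0 to 15 counts in iWAT and 0 in 3 of its 10 libraries. The adipocyte gene Adipoq was at 242 to 983 TPM in iWAT, which marks fat. Pnpla2, the deleted gene, was at 131 to 266 TPM in CV of cKO mice and at 168.8 to 405 TPM in CV of WT mice, where other cells also express it. Of the 38 genes 12 overlap another annotated gene, and the strandedness of the libraries is not given in the sources used here, so reads of such pairs may be mixed. The iWAT library of leptin replicate 3 stood apart from the other 9 in some of its lymph node genes. Glycam1, a ligand for lymphocyte entry made by high endothelial venules, was at 1.33 TPM there, at 577 to 1266 TPM in the other leptin mice and at 43.4 to 612 TPM with PBS. Cr2, which marks follicular dendritic cells and B cells, was at 0.03 TPM there against 1.02 to 16.4 TPM in the other 9 mice. The chemokine gene Cxcl13, in contrast, was higher there than in any PBS mouse. With Ccl21a and Glycam1 left out, the other 12 stroma and venule genes summed to 961 TPM there, inside the PBS range of 779 to 1047 TPM. Results in iWAT are therefore given with and without this library. It was singled out after its values were seen, and most of the 38 genes were also low in it. Passes without it are thus descriptive and are not independent support.

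In iWAT the T and NK cell genes were higher with leptin in 4 of the 5 leptin mice, and lower than in any PBS mouse in the remaining one for most genes. The summed TPM of the 38 genes was 1571, 1238, 146, 1445 and 1312 in leptin replicates 1 to 5, and 848, 312, 591, 536 and 513 in PBS replicates 1 to 5. The rise was thus not even over mice. Leptin replicate 1 was above the highest PBS mouse for 36 of the 38 genes, replicate 2 for 32, replicate 4 for 31 and replicate 5 for 30. In these mice 21.4% to 36.5% of all 14873 genes were above the PBS range. Leptin replicate 3 was above it for 0 of the 38 genes and below it for 29, where 38.4% of all genes were below.

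**Figure D1:**
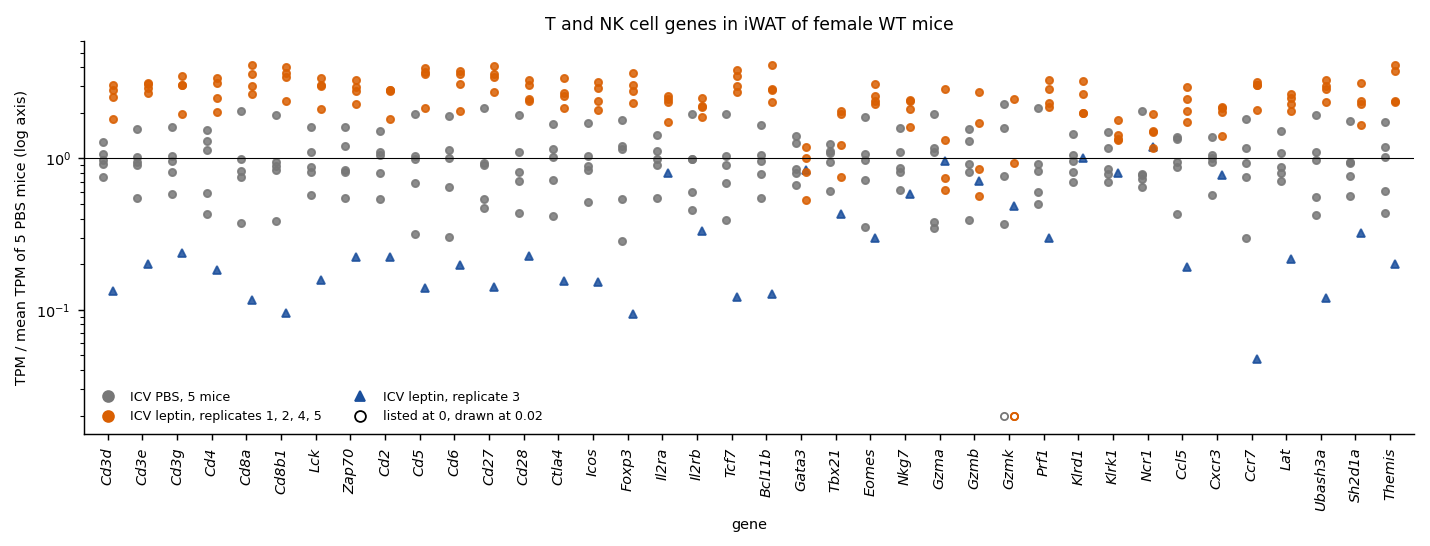
TPM of each of the 38 genes in each iWAT library of female WT mice, divided by the mean TPM of the 5 PBS mice, on a log axis. Points are mice, with grey circles for PBS, orange circles for leptin replicates 1, 2, 4 and 5 and blue triangles for leptin replicate 3, and open symbols for values listed at 0. The orange points lie above the line at 1 for most genes, and the blue triangles lie below the PBS mice for 29 of the 38.

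The CD3 chains, which carry the signal of the T cell receptor into the cell, showed this split. Cd3e was at 42.6, 39.6, 2.74, 42.8 and 36.7 TPM in leptin replicates 1 to 5 and at 21.3, 7.49, 12.4, 13.99 and 12.95 TPM in PBS replicates 1 to 5. The other 4 leptin mice were above every PBS mouse and replicate 3 was below them all. Cd3d was at 72.1, 46.4, 3.37, 78.2 and 65.0 TPM with leptin and at 32.7, 19.3, 24.9, 27.2 and 23.2 TPM with PBS. Cd3g was at 108, 69.6, 8.32, 124 and 108 TPM with leptin and at 56.7, 20.5, 28.8, 33.7 and 36.4 TPM with PBS. For all 3 chains every leptin mouse but replicate 3 was above every PBS mouse, and replicate 3 was below every PBS mouse. With all 10 mice the log2 fold change was 1.37 for Cd3e (SE 0.54, adjusted p = 0.0836), 1.21 for Cd3d (SE 0.57, adjusted p = 0.138) and 1.35 for Cd3g (SE 0.53, adjusted p = 0.0835) by the quasi-likelihood test of edgeR after Benjamini-Hochberg adjustment, so none of the 3 passed. Without leptin replicate 3 all 3 passed, with log2 fold changes of 1.64 (adjusted p = 0.000981), 1.48 (adjusted p = 0.000705) and 1.61 (adjusted p = 0.00216) in the same edgeR test.

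Lck, the kinase that starts signalling from the receptor, was at 89.0, 61.7, 4.59, 98.2 and 87.9 TPM with leptin and at 47.2, 16.6, 25.6, 31.9 and 23.8 TPM with PBS. Again leptin replicate 3 was below every PBS mouse and the other leptin mice were above, with a log2 fold change of 1.34 (SE 0.59, edgeR adjusted p = 0.113) in all mice and 1.61 (edgeR adjusted p = 0.00229) without leptin replicate 3. Among the 9 genes of the CD3 complex and receptor signalling, 0 passed with all mice and 9 passed without replicate 3.

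Among the co-receptors, Cd8a was at 28.4, 24.9, 1.09, 33.8 and 39.1 TPM with leptin and at 19.3, 3.52, 7.13, 9.26 and 7.80 TPM with PBS. Cd4 was at 28.3, 23.0, 2.09, 38.7 and 36.0 TPM with leptin and at 17.4, 4.89, 6.71, 12.8 and 14.8 TPM with PBS. The other 4 leptin mice were again above all PBS mice for both genes. The log2 fold change was 1.55 for Cd8a (SE 0.68, adjusted p = 0.116) and 1.28 for Cd4 (SE 0.59, adjusted p = 0.133) in edgeR with all mice, and 1.83 (adjusted p = 0.00647) and 1.55 (adjusted p = 0.00837) without replicate 3. The ratio of Cd4 to Cd8a TPM was 0.921 to 1.14 in the other 4 leptin mice, 1.92 in replicate 3 and 0.906 to 1.90 with PBS, so these ratios overlapped between the groups.

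Foxp3, the transcription factor of regulatory T cells, was at 3.24, 2.47, 0.10, 2.97 and 3.91 TPM with leptin and at 1.91, 0.30, 0.57, 1.23 and 1.29 TPM with PBS. Its log2 fold change of 1.36 (SE 0.69, edgeR adjusted p = 0.167) became 1.64 (edgeR adjusted p = 0.0163) without leptin replicate 3. Gata3, a factor of helper T cells that fat tissue and epithelium also express, did not follow the others. It was at 32.1, 27.2, 22.5, 21.9 and 14.4 TPM with leptin and at 18.0, 34.4, 38.04, 23.1 and 21.8 TPM with PBS, with leptin replicate 3 inside the PBS range and a log2 fold change of -0.12. Of the 6 transcription factors, Gata3 and Tbx21, the factor of type 1 helper cells, did not pass even without replicate 3.

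In the 3 genes that passed with all 10 mice, leptin replicate 3 was not below the PBS mice. Klrd1, a subunit of receptors on NK cells and cytotoxic T cells, was at 6.39, 6.46, 3.26, 10.5 and 8.51 TPM with leptin and at 4.68, 2.62, 3.11, 2.25 and 3.40 TPM with PBS. Il2ra, a chain of the interleukin-2 receptor, was at 5.03, 3.38, 1.55, 4.58 and 4.77 TPM with leptin and at 2.16, 1.06, 1.75, 1.92 and 2.77 TPM with PBS. Cxcr3, a chemokine receptor of activated T cells, was at 13.6, 13.4, 4.86, 8.75 and 12.5 TPM with leptin and at 8.64, 3.58, 6.58, 5.92 and 6.29 TPM with PBS. In each, leptin replicate 3 was inside the PBS range and the other 4 leptin mice were above it, so the groups overlapped through this mouse only. They rose by log2 fold changes of 1.19 for Klrd1 (SE 0.31, adjusted p = 0.0173), 1.10 for Il2ra (SE 0.32, adjusted p = 0.0287) and 0.87 for Cxcr3 (SE 0.28, adjusted p = 0.0426) in edgeR. With limma on log2(TPM + 1) or log2(TPM + 0.1), only Klrd1 of the 38 passed.

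Of the 8 cytotoxic and NK cell genes, 1 passed with all mice, which was Klrd1. Nkg7, a granule protein of NK and cytotoxic T cells, was at 50.2, 49.5, 12.0, 33.5 and 44.0 TPM with leptin and at 32.9, 12.8, 22.9, 17.8 and 16.9 TPM with PBS, with a log2 fold change of 0.97 (SE 0.34, edgeR adjusted p = 0.0600). Gzma, a granzyme, was at 18.0, 8.22, 5.98, 4.61 and 3.86 TPM with leptin and at 7.32, 6.90, 12.3, 2.36 and 2.17 TPM with PBS. Ncr1, a receptor found on NK cells and some innate lymphoid cells, was at 2.60, 2.66, 2.07, 3.45 and 2.04 TPM with leptin and at 3.58, 1.12, 1.38, 1.35 and 1.27 TPM with PBS. For Gzma the leptin mice lay within or across the PBS range. For Ncr1 every leptin mouse was above all PBS mice but PBS replicate 1, which was above every leptin mouse. Leptin replicate 3 was not below the PBS range for either gene. Neither passed with all mice (edgeR adjusted p = 0.551 for Gzma and 0.151 for Ncr1) or without replicate 3 (adjusted p = 0.529 and 0.159). In this group 4 passed without replicate 3, and the other 4 were Gzma, Gzmb, Gzmk and Ncr1. The ratio of Ncr1 to Cd3e TPM was 0.755 in leptin replicate 3 and 0.0555 to 0.168 in the other 9 mice.

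Ccl5, a chemokine made by T and NK cells, was the most abundant of the 38 genes, at 557, 470, 36.4, 390 and 328 TPM with leptin and at 264, 81.6, 253, 180 and 167.2 TPM with PBS. Ccr7, which guides naive T cells and mature dendritic cells into lymph nodes, was at 53.1, 36.4, 0.83, 55.8 and 53.2 TPM with leptin and at 31.9, 5.23, 13.2, 16.4 and 20.4 TPM with PBS. Replicate 3 was 0.0476 times the PBS mean for Ccr7. Neither passed with all mice (edgeR adjusted p = 0.175 and 0.211), and both passed without leptin replicate 3 (adjusted p = 0.00684 and 0.0124).

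Counted over the list, 3 of the 38 genes rose and 0 fell in iWAT with all 10 mice, where 7.24% of all tested genes rose. The median log2 fold change of the 38 was 1.22, against 0.07 for all genes, and 36 of 38 were above 0. Without leptin replicate 3, which was singled out after its values were seen, 32 of 38 rose, where 10.2% of all genes did. The median was then 1.49. In TPM, 0 of the 38 genes had every leptin mouse above every PBS mouse with all mice (4.32% of all genes did), and 29 had without leptin replicate 3 (9.24% of all genes). Other mice also set the count, since it was 0 without PBS replicate 4, 5 without PBS replicate 1, and 1 without leptin replicates 1, 4 or 5 or PBS replicates 2 or 3. Of 44 tested genes in a further list of T and NK cell genes, 9 rose with all mice and 38 without leptin replicate 3. Mouse numbers fall into a 100s and a 600s series, and within each the mean was higher with leptin for most of the 38 genes, in 37 of 38 for the 100s (2 leptin and 3 PBS mice) and 35 of 38 for the 600s (3 leptin and 2 PBS mice), against 53.5% and 44.5% of all genes.

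B lineage genes and a few abundant genes of lymph node stroma matched the T and NK cell genes in some mice only. Like those genes, they were low in leptin replicate 3 and high in leptin replicates 1, 4 and 5. The summed TPM of 18 B lineage genes was 962, 490, 36.8, 867 and 785 in leptin replicates 1 to 5 and 519, 136, 189.2, 546 and 395 in PBS replicates 1 to 5. Leptin replicate 3 was below every PBS mouse for all 18 of these genes. Leptin replicate 2 did not match, since its B lineage sum was inside the PBS range. It was above that range for 2 of the 18 genes, against 32 of the 38 T and NK cell genes and 24% of all genes. PBS replicate 3 was above PBS replicates 4 and 5 for the sum of the 38 genes and below both for the B lineage sum. The sum over 14 genes of lymph node stroma and high endothelial venules was 3787, 2170, 1016, 3249 and 2969 TPM with leptin and 1404, 1124, 1363, 2004 and 1773 TPM with PBS. Over 7 lymphatic endothelial genes it was 1189, 704, 145, 971 and 939 TPM with leptin and 336.7, 123, 182.3, 403 and 379 TPM with PBS. In all 3 lists PBS replicate 2 had the lowest sum of the PBS mice, as it did for the 38 genes. The stromal and lymphatic sums rest on few genes. Without Ccl21a, the other 6 lymphatic endothelial genes summed to 62.3, 48.4, 90.4, 59.5 and 59.4 TPM with leptin and to 35.4 to 62.4 TPM with PBS, with leptin replicate 3 the highest of the 10 mice. Without Ccl21a and Glycam1, the other 12 genes of stroma and high endothelial venules summed to 1478, 937, 961, 1072 and 828.95 TPM with leptin and to 779 to 1047 TPM with PBS, with leptin replicate 3 inside the PBS range. The 10 blood endothelial genes gave 455 to 695 TPM with leptin and 479 to 739 TPM with PBS, with leptin replicate 3 at 558 TPM, inside both ranges.

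**Figure D2:**
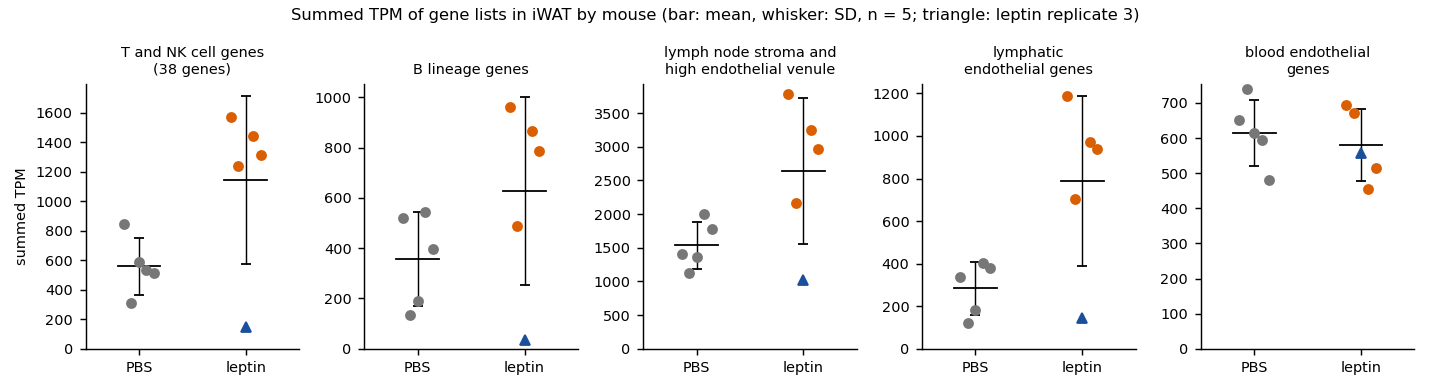
Summed TPM of 5 gene lists in each iWAT library, with PBS mice in grey, leptin mice in orange and leptin replicate 3 as a blue triangle, and bars and whiskers for the mean and SD of 5 mice. Leptin replicate 3 is below all PBS mice for the T and NK cell genes, B lineage genes and lymph node stroma, and inside the PBS range for the lymphatic and blood endothelial genes.

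Single markers differed in this. Ccl21a, a chemokine of lymph node stroma and lymphatic vessels that has near-identical copies among which reads may be shared, was at 1126, 656, 54.5, 912 and 880 TPM with leptin and at 294, 74.4, 120, 368 and 317 TPM with PBS. Ccl19, its partner on the receptor Ccr7, was at 219, 144, 5.85, 220 and 165.4 TPM with leptin and at 75.4, 45.2, 80.1, 67.2 and 55.7 TPM with PBS. Cxcl13, the chemokine of B cell follicles, was at 104, 72.0, 125, 110 and 59.0 TPM with leptin and at 40.0, 34.3, 22.0, 60.5 and 38.2 TPM with PBS, and was high in leptin replicate 3. Madcam1, an adhesion molecule of high endothelial venules, was at 1.94 to 9.76 TPM with leptin apart from 0.70 TPM in replicate 3, and at 3.35 to 11.7 TPM with PBS. Of the 13 tested genes of lymph node stroma and high endothelial venules, 4 rose and 1 fell with all mice, and 8 rose and 1 fell without replicate 3. Of the 18 B lineage genes, 0 rose and 1 fell with all mice in edgeR, and 7 rose and 1 fell without replicate 3.

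Summed TPM of 16 marker lists was compared between the 5 leptin and 5 PBS iWAT libraries by a two-sided exact permutation test, which cannot give a p below 0.00794. Plasma cell genes were higher in all 5 leptin mice, at 438 to 733 TPM against 202 to 308 TPM, with replicate 3 at 498 TPM (ratio of means 1.97, exact p = 0.00794, adjusted over the lists 0.127). Lymphatic endothelial genes had a ratio of 2.77 (exact p = 0.0397, adjusted 0.286), other T and NK cell genes 2.01 (exact p = 0.0714), B lineage genes 1.76 (exact p = 0.206) and lymph node stroma with high endothelial venules 1.72 (exact p = 0.0714). No list passed the adjustment. On mean log2(TPM + 1) the ratio was 1.38 for lymphatic endothelial genes and 1.41 for lymph node stroma with high endothelial venules. The ratios of the other 11 lists were 0.860 to 1.84, at exact p of 0.143 to 0.960, and they covered germinal centre, sinus macrophage, blood endothelial, macrophage, dendritic, neutrophil, fat stromal, adipocyte, mammary epithelial, skeletal muscle and innate lymphoid type 2 genes. The adipocyte list depends on the scale, with a ratio of 1.03 for the sum and 0.499 on mean log2(TPM + 1) (exact p = 0.00794), and 4 of its 10 genes fell and 1 rose in edgeR. A fit with these fat genes as a covariate is given below, and their part in the rise of the 38 genes was not otherwise tested.

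Ratios within a library set the T cell genes against these markers without use of any other library. The ratio of Cd3e to Ccl21a TPM was 0.0378, 0.0603, 0.0503, 0.0469 and 0.0418 in leptin replicates 1 to 5 and 0.0726, 0.101, 0.103, 0.0380 and 0.0408 in PBS replicates 1 to 5, with no leptin mouse above the PBS range. The ratio of Cd3e to Pecam1, an antigen of all endothelium, was 0.263, 0.291, 0.0227, 0.397 and 0.323 with leptin and 0.154, 0.0554, 0.107, 0.115 and 0.133 with PBS. Against this vascular gene the 4 leptin mice were above every PBS mouse and leptin replicate 3 was below. The summed TPM of the 38 genes over that of the B lineage genes was 1.63, 2.53, 3.98, 1.67 and 1.67 with leptin and 1.64, 2.30, 3.13, 0.982 and 1.30 with PBS, and the groups overlapped.

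The same comparison was fitted with the mean level of a marker list in each library as a covariate. With B lineage genes as the covariate, 17 of the 38 genes rose, where 8.72% of all genes did and 8.16% fell, and their median log2 fold change was 0.60. With genes of lymph node stroma and high endothelial venules, 0 of the 38 passed and 2 had an unadjusted p below 0.05, while 5.41% of all genes rose and 6.82% fell. The median of the 38 was then -0.18, with 12 of them above 0. With that covariate and leptin replicate 3 left out, 0 passed, where 0.370% of all genes rose, and 37 of the 38 were above 0 with a median of 0.72. With B lineage genes as the covariate and replicate 3 left out, 8 passed, where 3.58% of all genes rose, and the median was 0.81. A covariate of blood endothelial genes left 2 passing with a median of 1.14, where 6.99% of all genes rose. One of adipocyte genes left 0 passing with a median of 0.92, where 0.289% of all genes rose. The scores were measured in the same libraries as the 38 genes, and how much of the rise came from node tissue was not tested.

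**Figure D3:**
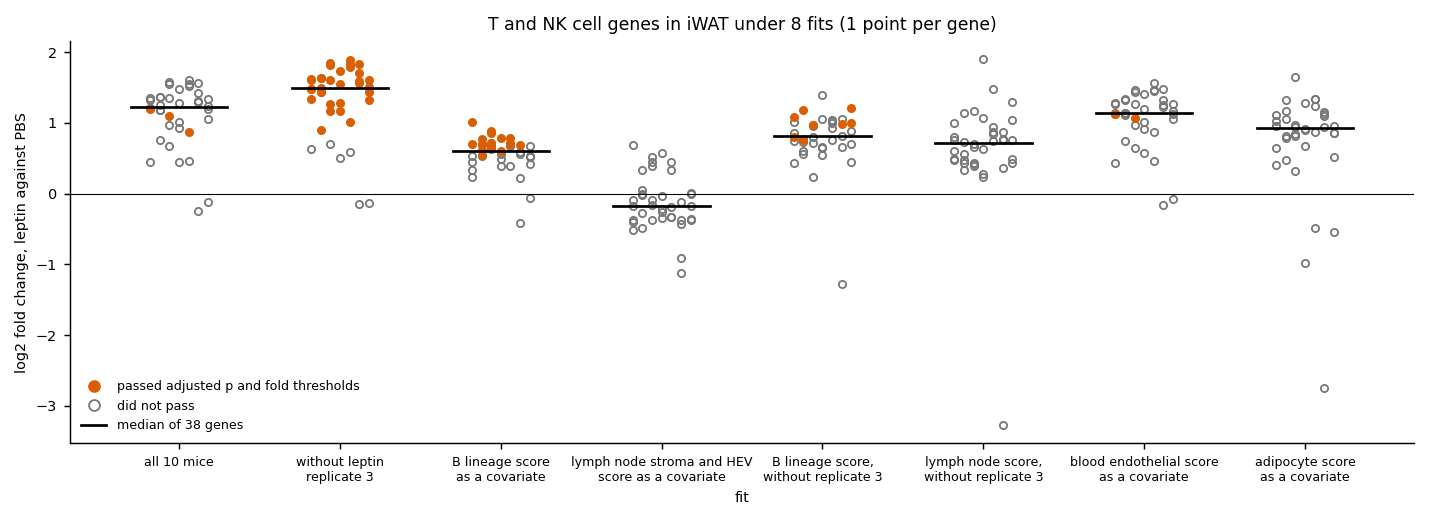
log2 fold change of leptin against PBS in iWAT for the 38 genes under 8 fits, 1 point per gene, filled where the gene passed both thresholds, with the median as a bar. The median is 1.22 with all 10 mice, 1.49 without leptin replicate 3, 0.60 with the B lineage score and -0.18 with the score of lymph node stroma and high endothelial venules (HEV).

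In leptin replicate 3 the summed TPM of the 38 genes was 146 in iWAT, and 17 of the 38 were above the PBS range in CV, where 37.6% of all genes were, and 20 in LV, where 6.53% were. In these tissues 1 and 2 of the 38 were below the range. In the marrow comparisons without insulin the median log2 fold change of the 38 was 0.32 to 0.74.

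In CV of female WT mice, 3 of the 38 genes rose with leptin and 0 fell, where 2.78% of all genes rose and 5.04% passed in either direction. Cd4 was at 13.1, 13.8, 14.7, 14.2 and 11.04 TPM with leptin and at 5.78, 7.29, 9.05, 8.83 and 9.98 TPM with PBS, so the groups did not overlap. It rose by a log2 fold change of 0.69 (SE 0.13, edgeR adjusted p = 0.0136). Cd4 is also expressed by some macrophages and dendritic cells, and Cd3e did not pass in the same libraries. Of 14 macrophage genes 14 were above 0 and 3 rose there, with 1 sinus macrophage and 1 dendritic cell gene, and their part in the Cd4 result was not tested. Tcf7, a factor of naive and memory T cells, was at 16.3, 19.7, 16.7, 19.5 and 24.1 TPM with leptin and at 8.40, 9.06, 10.4, 16.0 and 15.1 TPM with PBS. Ccr7 was at 9.46, 11.3, 9.46, 11.02 and 11.7 TPM with leptin and at 3.61, 7.90, 6.78, 7.78 and 5.73 TPM with PBS. Both had every leptin mouse above every PBS mouse, and rose by 0.75 (SE 0.18, edgeR adjusted p = 0.0318) and 0.72 (SE 0.19, edgeR adjusted p = 0.0428) on the log2 scale.

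Cd3e was at 2.75, 6.14, 3.40, 2.02 and 2.94 TPM with leptin and at 2.17, 3.09, 3.14, 2.20 and 2.30 TPM with PBS in these CV libraries, a log2 fold change of 0.42 (SE 0.32, edgeR adjusted p = 0.449). Cd8a was at 1.10, 4.38, 1.58, 1.22 and 1.29 TPM with leptin and at 0.80, 1.36, 1.38, 1.99 and 0.86 TPM with PBS. In both genes leptin replicate 2 was high and the other leptin mice overlapped the PBS mice. Nkg7 was at 8.86 to 19.2 TPM with leptin and at 5.57 to 12.2 TPM with PBS, Gzma at 4.34 to 15.3 TPM and 6.25 to 9.99 TPM, and Ncr1 at 1.22 to 2.46 TPM and 1.21 to 2.62 TPM, and none of the 3 passed. In all, 5 of the 38 genes did not overlap between the groups, where 3.81% of all genes did so with leptin higher. The median log2 fold change of the 38 was 0.35 against -0.01 for all genes, and leptin replicate 2 alone was above the PBS range for 32 of them, where 13.4% of all genes were. Leaving out 1 mouse moved the median of the 38 between 0.09 and 0.49.

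In CV of male WT mice, 1 of the 38 genes rose, where 0.834% of all genes rose and 0.914% fell. An unadjusted p below 0.05 was found for 8 of the 38, where 9.45% of all genes were higher at that p. This was Cd4, at 3.44 to 4.90 TPM with a median of 4.35 in 8 leptin mice and at 1.96, 1.43, 3.49, 2.48 and 2.96 TPM in the 5 PBS mice. The groups overlapped only in that the lowest leptin mouse was just under the highest PBS mouse. Its log2 fold change was 0.74 (SE 0.18, edgeR adjusted p = 0.0434), and 0.75 (edgeR adjusted p = 0.0214) with the mouse number series as a covariate. The call was lost without any 1 of leptin replicates 1, 2, 4, 6, 7 and 8 or PBS replicates 1, 2, 4 and 5, each of which left 0 genes passing, and 2 passed without PBS replicate 3. Cd3e was at 1.56 to 3.65 TPM with a median of 2.43 with leptin and at 1.00 to 2.89 TPM with PBS, and Cd8a at 0.39 to 2.41 TPM and 0.56 to 1.83 TPM, and the groups overlapped widely. Macrophage genes were above 0 in 14 of 14, and 0 rose. Over the 38 genes the median log2 fold change was 0.32 against 0.00 for all genes, and 0.18 to 0.52 with 1 mouse left out. No gene of the 38 differed in its leptin effect between the sexes in an edgeR interaction test with Benjamini-Hochberg adjustment (0 passed, as with DESeq2 and limma, 2 had an unadjusted p below 0.05, and 0.0% of all genes passed).

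Ctla4, an inhibitory receptor of T cells, and Ccr7 were uneven among the male leptin mice by mouse number series. Ctla4 was at 0.54 to 1.08 TPM in leptin replicates 1 to 5, of the 100s series, and at 2.95, 3.95 and 2.93 TPM in replicates 6, 7 and 8, of the 600s series. The PBS mice of the 600s, replicates 4 and 5, were at 0.28 and 0.35 TPM, and those of the 100s at 0.32 to 0.78 TPM. Ccr7 was at 6.34 to 9.55 TPM in leptin replicates 1 to 5, at 24.7, 20.5 and 28.4 TPM in replicates 6, 7 and 8, and at 2.99 to 9.08 TPM in the 5 PBS mice. Both genes were thus high in leptin mice of 1 series and not in the PBS mice of that series. Neither passed (edgeR adjusted p = 0.0837 for Ctla4 and 0.120 for Ccr7). Foxp3 and Icos, another receptor of activated and regulatory T cells, were at 0.20 to 0.40 TPM and 0.42 to 0.60 TPM in the same 3 mice, within the range of the other male WT mice.

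In CV of cKO mice, 0 of the 38 genes passed in either sex with edgeR, where 0.0% of all genes rose in females and 0.0874% in males. In females 0.0269% of all genes fell, which is also the 0.0269% that passed in either direction. An unadjusted p below 0.05 was found for 7 of the 38 in females, where 5.49% of all genes were higher at that p, and for 12 in males, where 4.76% were. DESeq2 called 0 in females and 5 in males, and limma called 0 in both. The medians of the 38 were 0.74 in females and 0.50 in males, against 0.02 and 0.00 for all genes, and that of females was 0.31 to 0.98 with 1 mouse left out. Mouse number series was not balanced, since the 600s held PBS mice only in females and leptin mice only in males. With series as a covariate the medians were 0.36 in females and 0.67 in males. In female cKO mice, Cd3e was at 9.02, 4.01, 4.13 and 2.82 TPM with leptin and at 3.61, 4.10, 2.10 and 1.5 TPM with PBS. Leptin replicate 1 was the high one, and was above the PBS range for 38 of the 38 genes, where 34.9% of all genes were. In male cKO mice, Cd3e was at 3.41, 2.84, 4.36 and 2.58 TPM with leptin and at 1.87, 1.29, 1.77, 1.71 and 1.96 TPM with PBS, with no overlap (log2 fold change 0.97, SE 0.23, edgeR adjusted p = 0.121). Groups were apart in TPM for 1 of the 38 genes in female cKO CV (1.39% of all genes with leptin higher) and for 4 in male cKO CV (0.901%), which were Cd3e, Cd6, Il2rb and Ccr7.

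In LV no gene passed, but more of the groups did not overlap. In female WT mice, Cd3e was at 1.92, 2.45, 1.97, 2.22 and 1.93 TPM with leptin and at 1.31, 1.07, 1.31, 1.21 and 1.24 TPM with PBS. Cd8a was at 1.30, 2.30, 1.97, 1.70 and 1.74 TPM with leptin and at 1.08, 0.88, 0.77, 1.04 and 0.98 TPM with PBS. Neither gene overlapped between the groups. The log2 fold changes were 0.73 for Cd3e (SE 0.13, adjusted p = 0.0680) and 0.89 for Cd8a (SE 0.18, adjusted p = 0.0849) in edgeR, so neither passed. With edgeR 0 of the 38 genes passed, 26 had an unadjusted p below 0.05 (25 of them higher, where 7.38% of all genes were higher at that p), and 0.0% of all genes passed. DESeq2 called 8 of the 38 and limma 0. In TPM, 11 of the 38 did not overlap, where 1.02% of all genes had leptin higher in that way, and they comprised Cd3d, Cd3e, Cd3g, Cd8a, Cd8b1, Zap70, Cd27, Tcf7, Nkg7, Cxcr3 and Ccr7. Cd4 was at 3.41 to 6.11 TPM with leptin and at 3.05 to 4.12 TPM with PBS and overlapped (log2 fold change 0.44, edgeR adjusted p = 0.138).

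In LV of female cKO mice, Cd3e was at 1.76, 2.44, 2.03 and 2.30 TPM with leptin and at 0.97, 0.88, 1.61 and 1.63 TPM with PBS. Ccr7 was at 5.82, 6.17, 4.55 and 6.55 TPM with leptin and at 2.16, 2.71, 3.41 and 3.57 TPM with PBS. The groups did not overlap for either gene, with log2 fold changes of 0.62 (edgeR adjusted p = 0.505) and 0.83 (edgeR adjusted p = 0.414). With edgeR 0 of the 38 and 0.0% of all genes passed, and 16 of the 38 had an unadjusted p below 0.05, where 4.41% of all genes were higher at that p. DESeq2 called 1 and limma 0. The median log2 fold change of the 38 was 0.48 in WT LV and 0.35 in cKO LV, against 0.01 for all genes in WT. The difference between genotypes was not tested. In cKO LV 9 of the 38 genes did not overlap, where 4.02% of all genes had leptin higher in that way and 0.182% lower. Leptin replicate 2 was above the PBS range for 33 of the 38, where 70% of all genes were. The 10 neutrophil genes summed to 260202, 237024, 144790 and 145007 TPM in PBS replicates 1 to 4 and to 167996 to 215166 TPM with leptin. Their part in these TPM values was not tested.

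**Figure D4:**
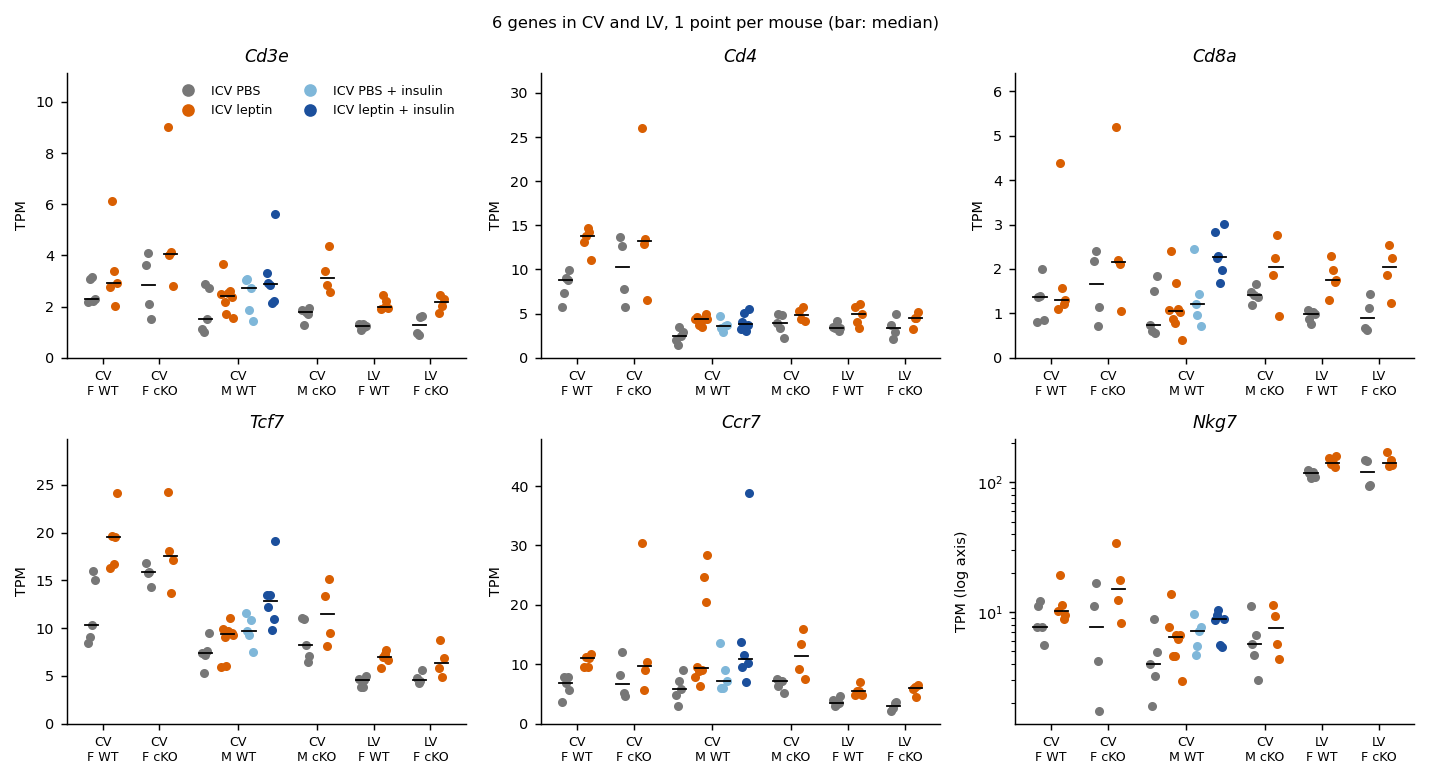
TPM of Cd3e, Cd4, Cd8a, Tcf7, Ccr7 and Nkg7 in CV and LV by sex (F, M), genotype and treatment, with 1 point per mouse and the median as a bar; the axis of Nkg7 is logarithmic. Cd4 is higher with leptin in WT CV of both sexes, Ccr7 is at 20.5 TPM or more in 3 male WT leptin mice, 1 male WT mouse with leptin and insulin and 1 female cKO leptin mouse, and Nkg7 is higher in LV than in CV.

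Insulin was given to male WT mice only, and its groups share the leptin and PBS mice described above. With insulin in both groups, leptin against PBS gave 0 of the 38 genes in edgeR (13 with an unadjusted p below 0.05, 1 with DESeq2, 0 with limma), where 0.141% of all genes rose and 7.35% were higher at that unadjusted p. Insulin with leptin against leptin alone gave 0 (14 with an unadjusted p below 0.05, 3 with DESeq2, 0 with limma), where 0.141% rose, 0.222% fell, 0.363% passed in either direction and 7.63% were higher at that unadjusted p. Insulin with PBS against PBS alone gave 0 (4 with an unadjusted p below 0.05, 0 with DESeq2 and limma), where 0.0% rose. The medians of the 38 were 0.44, 0.44 and 0.28 in this order. Insulin mice carry only numbers of the 300s and 400s, and male WT mice without insulin those of the 100s and 600s, so insulin and series cannot be told apart. All mice with PBS and insulin were of the 300s, and the 400s held only mice with leptin and insulin. Leptin and series are thus partly mixed among the insulin mice too.

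Cd8b1, the other chain of CD8, had the lowest adjusted p for insulin with leptin against leptin (log2 fold change 1.12, edgeR adjusted p = 0.0673). Cd8a was at 1.68 to 3.02 TPM with a median of 2.27 in the 6 mice with leptin and insulin, at 0.39 to 2.41 TPM with a median of 1.05 in the 8 with leptin, at 0.72 to 2.46 TPM with PBS and insulin and at 0.56 to 1.83 TPM with PBS. The groups overlapped, and leptin with insulin differed from leptin alone by a log2 fold change of 1.01 (SE 0.31, edgeR adjusted p = 0.106). Cd4 was at 3.07 to 5.52 TPM with leptin and insulin and at 2.92 to 4.69 TPM with PBS and insulin, with log2 fold changes of -0.07 against leptin alone (edgeR adjusted p = 0.879) and 0.20 against PBS with insulin (edgeR adjusted p = 0.614). Ctla4 was at 0.61 to 0.97 TPM in 5 of the mice with leptin and insulin and at 8.61 TPM in replicate 6, where Ccr7 was at 38.8 TPM against 7.04 to 13.7 TPM in the other 5. For 0 of the 38 genes were the groups apart in any of these 3 comparisons, where 0.659%, 0.108% and 4.27% of all genes had the first group higher.

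**Figure D5:**
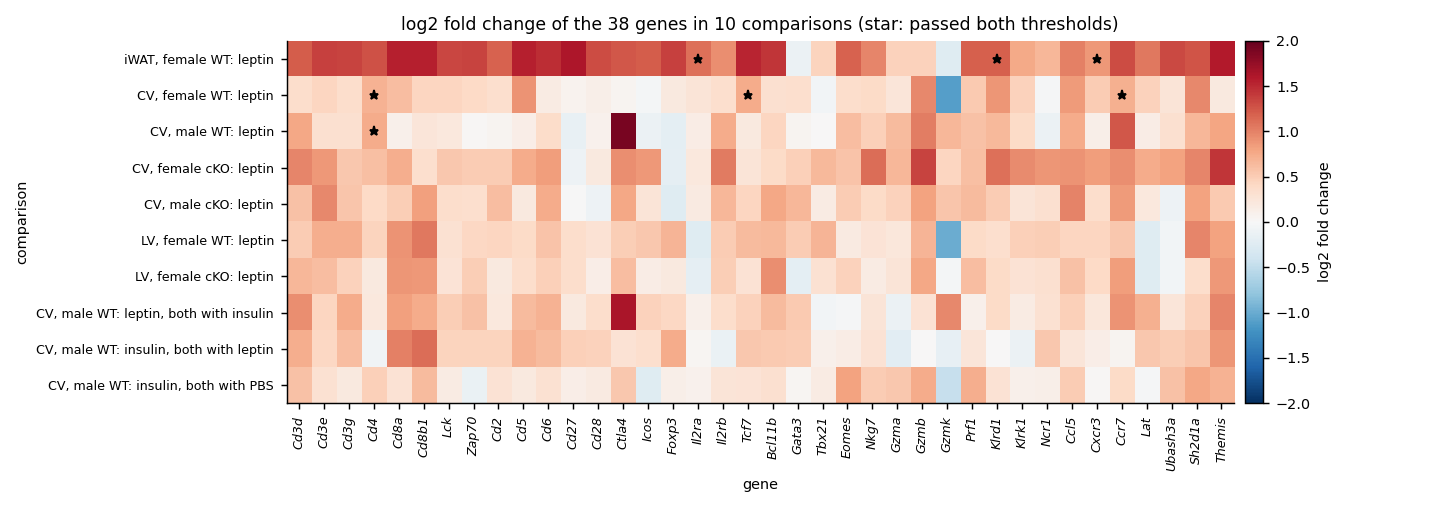
log2 fold change of each of the 38 genes in 10 comparisons, in red where higher and blue where lower in the first group named, with a star where the gene passed both thresholds. The 7 stars are Klrd1, Il2ra and Cxcr3 in iWAT, Cd4, Tcf7 and Ccr7 in female CV and Cd4 in male CV.

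Whether the leptin effect was larger in iWAT than in CV of the same female WT mice was tested as an interaction. The median difference of the 38 genes was 0.79 on the log2 scale, and 36 of 38 were above 0, but 0 passed in edgeR (0 with an unadjusted p below 0.05, and 0 with DESeq2 and limma), where 6.33% of all genes had a higher and 9.12% a lower effect in iWAT. For Cd3e the difference was 0.90 (SE 0.69, edgeR adjusted p = 0.410). Without the iWAT library of leptin replicate 3, 5 of the 38 passed, where 7.87% of all genes were higher, and they were Icos, Cd28, Bcl11b, Ctla4 and Cd27, with differences of 1.36 to 1.80. Icos and Cd28 are costimulatory receptors, Cd27 is one of naive and memory cells, and Bcl11b is a factor of T cell commitment.

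At baseline with PBS, most T cell genes were higher in iWAT than in CV, while 5 of the 8 cytotoxic and NK cell genes did not pass. Of the 38 genes 29 were higher in iWAT and 0 lower in edgeR, where 24.5% of all genes were higher, and the median log2 fold change was 1.70. All 9 genes of the CD3 complex and receptor signalling were higher, with Cd3e at 2.17 to 3.14 TPM in CV and 7.49 to 21.3 TPM in iWAT (log2 fold change 2.54, SE 0.25, edgeR adjusted p = 2.82e-06). Gata3 differed most, at 0.37 to 0.59 TPM in CV and 18.0 to 38.04 TPM in iWAT (log2 fold change 5.88, SE 0.27, edgeR adjusted p = 7.74e-09). Ncr1 was at 1.21 to 2.62 TPM in CV and 1.12 to 3.58 TPM in iWAT, and Gzma at 6.25 to 9.99 TPM and 2.17 to 12.3 TPM, with overlap in both. Cd4 also overlapped, at 5.78 to 9.98 TPM in CV and 4.89 to 17.4 TPM in iWAT (log2 fold change 0.62, SE 0.29, edgeR adjusted p = 0.0760).

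Between the marrow sites, the order of genes was different. Nkg7 was at 109 to 124 TPM in LV and 5.57 to 12.2 TPM in CV with PBS, with no overlap (log2 fold change 4.85, SE 0.18, edgeR adjusted p = 8.66e-11). Ubash3a, a phosphatase-like regulator of receptor signalling, was at 5.34 to 7.08 TPM in LV and 0.33 to 1.22 TPM in CV, and Lat, the adaptor that links the receptor to its pathways, at 26.9 to 32.8 TPM and 7.44 to 9.99 TPM. These 3 genes were the highest of the list in LV against CV, while the CD3 chain Cd3e was at 1.07 to 1.31 TPM in LV, below its CV range. The 10 neutrophil genes summed to 151369 to 183565 TPM in these LV libraries and to 2251 to 11793 TPM in CV. Which cells carried Nkg7, Ubash3a and Lat in LV was not tested. In edgeR 20 of the 38 were higher in LV and 3 lower, where 31.7% and 34.9% of all genes were. The split depends on the scale, since the median of all genes was -0.02 in that fit and -0.87 with limma on log2(TPM + 1), which gave 5 of the 38 higher and 11 lower. The 5 that were higher on both scales were Nkg7, Ubash3a, Lat, Klrd1 and Cd27, at log2 fold changes of 2.11 to 4.85 in edgeR and 0.77 to 3.61 with limma. Cd3e changed sign between the scales, with a log2 fold change of 0.05 (adjusted p = 0.791) in edgeR and -0.67 with limma on log2(TPM + 1).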

How the data were processed

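Polyadenylated RNA was enriched with oligo dT and sequenced as paired reads. Per the paper's methods, reads were cleaned with SOAPnuke and aligned with HISAT and Bowtie2 to GRCm38.p6; the counting tool is not given in the sources used here. The authors deposited estimated counts per gene and, from the same reads, TPM, which the authors scaled for gene length and library. Of the deposited counts 51 values in 6 genes were not whole and were rounded. The 39063 genes with a numeric identifier were kept, and 14873 with a mean TPM of at least 0.4 were tested.

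Counts were fitted with edgeR 4.0.16 (TMM scaling, quasi-likelihood test, Benjamini-Hochberg adjustment over all tested genes) in R 4.3.3. DESeq2 1.42.0, limma 3.58.1 on log2(TPM + 1) and log2(TPM + 0.1), other filters, covariates, a replicate block and leaving out each mouse were alternatives. The fits were tested on simulated data. No p-value of the authors was used. Replicates are separate mice, and 0 of 163 library pairs compared were identical. Same-numbered leptin and PBS replicates are different mice. Over the leptin comparisons, their deviations had lowest correlations of -0.17 to -0.42, means of -0.11 to 0.21 and highest correlations of 0.10 to 0.47. Tissues of 1 mouse share its number in the labels.

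The 38 genes, all lists and the rule for named genes were chosen with earlier results of these data known. The rule gives sample values for Cd3d, Cd3e, Cd3g, Cd4, Cd8a, Lck, Foxp3, Ncr1, Nkg7, Gzma, Ccr7 and Ccl5 in iWAT, for Cd3e, Cd4, Cd8a, Nkg7, Gzma and Ncr1 in marrow, for genes that passed, and for fixed lymph node and fat markers. Gata3, Ctla4, Icos and Cd8b1, Ubash3a and Lat were singled out after their values were seen. Promoters came from a RefSeq table of GRCm38.p6. The result for 1 marker gene is not reported here.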

Additional observations from a re-analysis of the deposited data

Results flagged for a closer look

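Sets of values from 1 group were examined for a sample far from the others, and 11 of 134 had one, where chance gives about 1 in 20. In iWAT of female WT mice, leptin replicate 3 had 2.74 TPM of Cd3e, with the nearest leptin mouse at 36.7 TPM, and a summed TPM of the 38 genes of 146, with the nearest at 1238. PBS replicate 1 had 3.58 TPM of Ncr1 in iWAT, with the nearest PBS mouse at 1.38 TPM. In CV of female WT mice, leptin replicate 2 was the high sample for Cd8a at 4.38 TPM against 1.58 TPM, for Nkg7 at 19.2 TPM against 11.4 TPM, and for the sum of the 38 genes at 345 TPM against 237 TPM. Leptin replicate 4 of female cKO mice had 6.17 TPM of Gzma in LV, with the nearest at 11.4 TPM. In male WT CV, leptin replicate 2 had 13.7 TPM of Nkg7 against 7.67 TPM in the nearest mouse. Replicate 6 with leptin and insulin had 5.63 TPM of Cd3e against 3.33 TPM. Replicate 1 with PBS and insulin had 18.8 TPM of Gzma against 4.55 TPM, and replicate 2 of that group had 0.84 TPM of Ncr1 against 1.79 TPM.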

How the results depend on the processing

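Counts of the 38 genes that passed are given. In iWAT the 3 became 8 with DESeq2, 1 with limma at either pseudocount, 5 with the mouse number series, 17 with the B lineage score, 0 with the lymph node score and 0 with the adipocyte score. Chosen after seeing the data, leaving out leptin replicate 3 gave 8 with the B lineage score and 0 with the lymph node score, and 5 in the interaction of iWAT and CV. DESeq2 gave 7 in female WT CV, 4 in male WT CV, 5 in male cKO CV, 8 in WT LV, 1 in cKO LV, 3 for leptin with insulin against leptin and 1 against PBS with insulin. The series covariate gave 6 in female WT CV, 2 in male WT CV and 4 in WT LV. The cause of these changes was not tested.

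The replicate block, where numbers join different mice, gave 3 in iWAT, 5 in female WT CV and 0 in male WT CV. Mouse as a replicate block gave 28 for iWAT against CV and 0 in the interaction, and changed no count by over 1.5 times.

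Leaving out 1 mouse gave 0 to 32 in iWAT (32 without leptin replicate 3), 1 to 4 in female WT CV (1 without leptin replicates 4 or 5 or PBS replicates 1, 2 or 3), 0 to 2 in male WT CV, 0 to 1 for leptin with insulin against leptin (1 without leptin replicate 6), and 0 to 5 in the interaction (5 without iWAT leptin replicate 3, 1 without iWAT PBS replicate 1). Ratios of summed TPM in iWAT ranged over 1.83 to 2.40 for other T and NK cell genes, 1.52 to 2.17 for B lineage, 1.53 to 1.98 for lymph node stroma, 1.19 to 1.48 for dendritic and 2.42 to 3.34 for lymphatic endothelial genes. The adipocyte list turned to a ratio of 0.499 on mean log2(TPM + 1). For LV against CV, limma at pseudocounts of 1 and 0.1 turned Cd3e to -0.67 and -0.997, Cd8a to -0.20 and -0.33, and Gzma to -0.21 and -0.24. Of 2417 values of single genes under alternatives, 6 changed sign where the gene passed in either fit, and a further 62 lost and 35 gained a call. The other 2314 kept their side of the threshold. Sign changes of genes that passed in neither fit are counted among these 2314.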

Other observations

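Skeletal muscle genes varied widely among iWAT libraries without regard to treatment, with summed TPM of 240, 3851, 7.64, 732 and 93.6 in leptin replicates 1 to 5 and 2756, 74.4, 31.3, 2823 and 42.5 in PBS replicates 1 to 5. Genes of innate lymphoid type 2 cells summed to 25.3 to 37.7 TPM in leptin replicates 1, 2, 4 and 5 and were highest of all 10 mice in leptin replicate 3.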
